A study of Mus musculus with 4 samples.

Results

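Respiratory complex III, complex IV (cytochrome c oxidase) and the mitochondrial ATP synthase were followed through every probe that the array design names for them. Members were all gene rows whose name starts with Uqcr, with Atp5, or with Cox and a number. That gave 62 probes of 46 genes, out of 41174 probes on the array. Of these, 58 probes of 43 genes were bright enough to be tested: at least 3 of the 4 arrays had to measure them clearly over background, in 1 channel throughout. The array's own gene names are used throughout.

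Complex III passes electrons from ubiquinol to cytochrome c, and complex IV passes them from cytochrome c to oxygen. Both complexes feed the proton gradient across the inner mitochondrial membrane, and ATP synthase uses that gradient to make ATP. The genes studied here are the nuclear ones, since the rule takes in no mitochondrially encoded subunit. Activated mast cells depend in part on mitochondrial ATP for the release of their granules.

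The cells were mouse mucosal mast cells differentiated in vitro. One group was stimulated with interleukin 18 (IL-18), a cytokine of the IL-1 family, and the other was left unstimulated; the labels do not say at what dose or for how long. Each of the 4 arrays carried 1 biological replicate, with the stimulated RNA in the red channel (Cy5) and its own unstimulated control in the green channel (Cy3). The dyes were never exchanged, so an effect of IL-18 and a dye effect specific to a probe cannot be told apart. Every value below is a log2 ratio of stimulated over unstimulated after loess normalization within the array, unless another scale is named, and "rose" and "fell" mean an adjusted p under 0.05 in limma over all 24104 tested probes.

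The arrays held 43379 gene spots each, and 49.9% to 54.0% of these exceeded background clearly in Cy3 and 57.9% to 62.7% in Cy5. Replicates 1 and 2 lay on slide 1 and replicates 3 and 4 on slide 2. Between pairs of arrays, the log2 ratios correlated across tested probes with Pearson's r from 0.619 to 0.906. All 8 mast cell marker genes on the array (Cpa3, Fcer1a, Gata2, Hdc, Kit, Mcpt1, Mcpt2, Ms4a2) were well above background in both channels of all arrays, with a summed uncorrected brightness of 262775 to 319504 in Cy3 and 1167379 to 1298402 in Cy5. Of the macrophage markers, 4 of 4 also passed, at a summed 3205 to 3890 in Cy3 and 5263 to 7130 in Cy5. Of the basophil markers 2 of 2 passed, at a summed 633 to 1199 in Cy3 and 1424 to 2779 in Cy5. Of the neutrophil markers 0 of 3 passed, and of those of T cells, B cells, erythroid cells, eosinophils and fibroblasts 1 gene of 2 or 3 each, with no list above a summed 540.4 in Cy3 or 619 in Cy5. In RNA from a whole culture, fewer cells of a type and less RNA per cell cannot be told apart.

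Transcripts of these complexes were more often higher than lower after IL-18, by small amounts. In limma, 24 of the 58 tested probes rose and 4 fell, leaving 30 short of the threshold; over all tested probes 18.1% rose and 16.1% fell, or 34.1% in either direction. The median log2 ratio of the member probes was 0.13, against 0.02 over all tested probes. By array, the members' median was 0.06 for replicate 1, 0.17 for replicate 2, 0.17 for replicate 3 and 0.17 for replicate 4. Replicate 1 was thus lowest, and no array's median lay below 0. By gene, 18 of the 43 tested had a probe that rose and none that fell, Cox10 had only a fall, Atp5b and Cox17 had probes that moved in opposite directions, and 22 had no probe past the threshold. The tested probes of complex I genes (named Nduf), the other large family of the respiratory chain, are given beside them: 28 of 49 rose, 2 fell and their median was 0.21. The difference from that family was not tested. Markers of cell types also moved. Of the mast cell genes, Fcer1a rose by 0.81, Mcpt1 by 0.69 and Cpa3 by 0.47; Gata2 rose by 0.30 with 1 probe and fell, at -0.29, with the other, and Kit, Mcpt2, Ms4a2 and Hdc did not pass. The basophil gene Mcpt8 rose by 0.41, while Prss34 read 0.07 and did not pass. Of the macrophage genes, Emr1 rose by 0.28, Itgax had a brighter probe that fell, at -0.21, and a dimmer one that rose by 0.30, and Cd14 and Csf1r did not pass. Their part in the members' ratios was not tested.

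**Figure D1:**
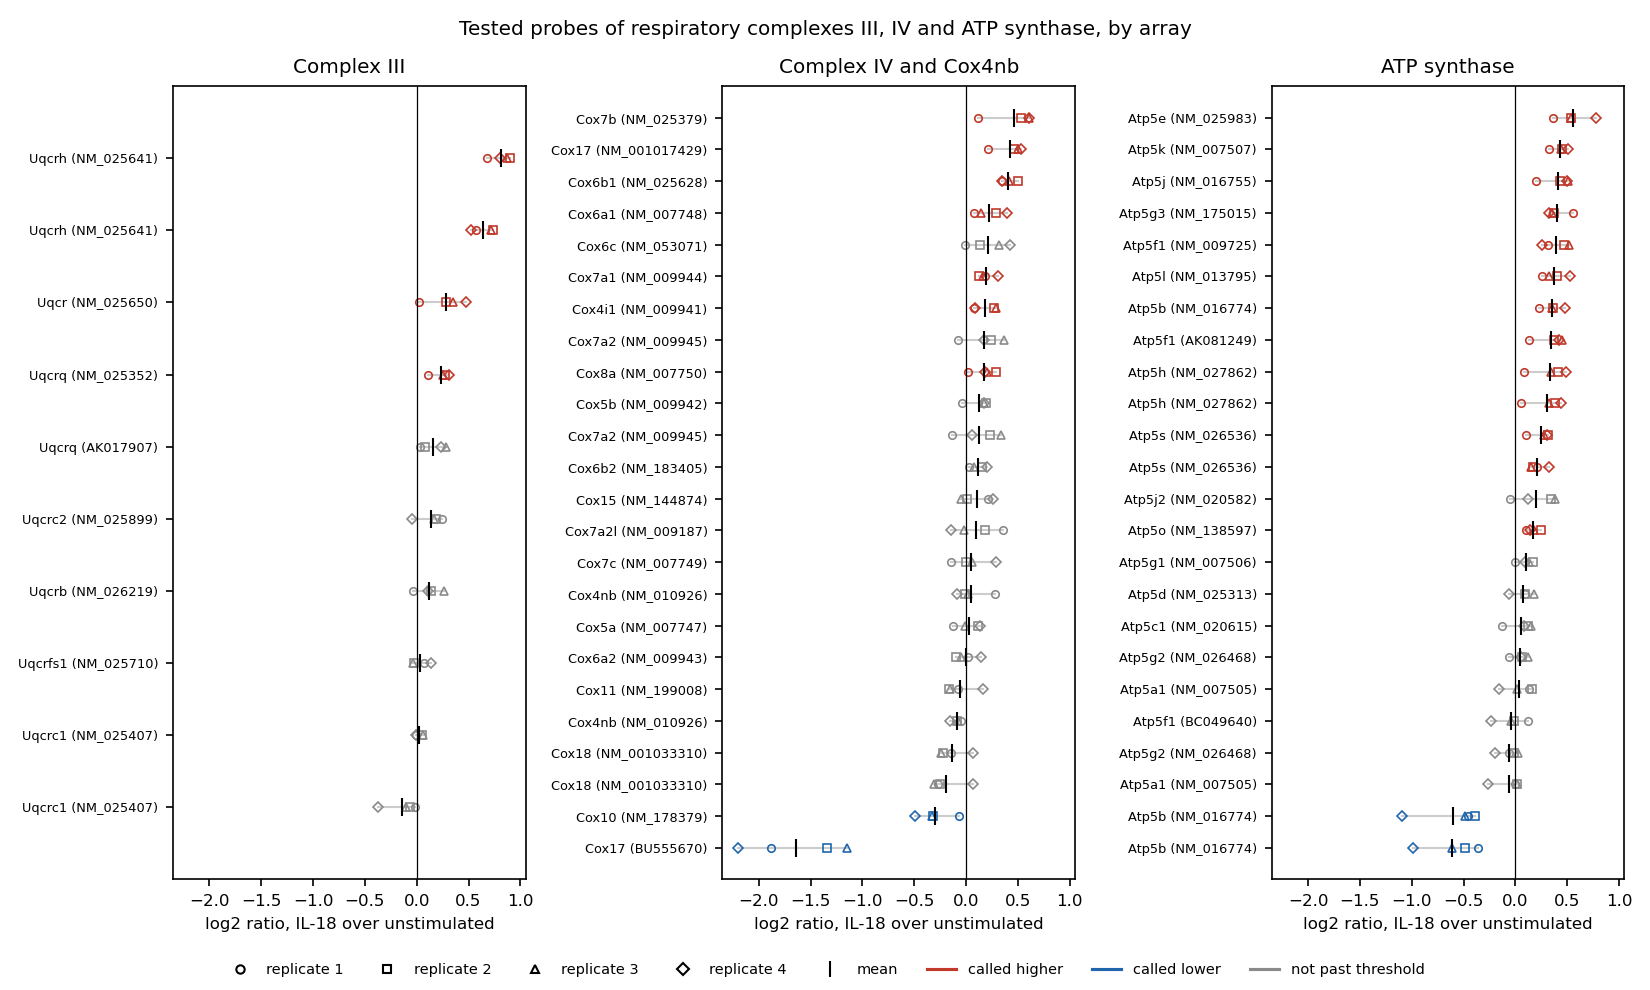
Log2 ratio of IL-18 over unstimulated (x axis) for each of the 58 tested probes, grouped by complex and ordered by mean; open symbols are the 4 replicates, vertical marks the means, and colours the calls in limma. The 2 Uqcrh probes lie farthest to the right and 1 Cox17 probe farthest to the left; centring each array on its median in place of loess moves nearly all probes to the right and the 2 lower Atp5b probes to above 0.

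Brightness and the normalization bear on these counts. Member probes are bright: 38 of the 58 are in the brightest of 10 equal classes of tested probes, and their mean log2 intensity had quartiles of 12.4 and 15.1. Among the 2502 tested probes between those quartiles, 19.7% rose and 28.7% fell, with a median of -0.04; of the 28 members there, 9 rose and 1 fell, with a median of 0.12. Above a mean log2 intensity of 15, however, the other probes also lay above 0 after loess. Between 15 and 16, 46.9% of the 311 other probes rose (median 0.17), and 9 of 13 members rose (median 0.24). Between 16 and 18, 78.4% of the 148 other probes rose (median 0.52), and 2 of 3 members rose (median 0.23). Between 14 and 15, where the other 614 probes had a median of -0.03 and 22.6% of them rose, 6 of 11 members rose and their median was 0.20. Rises were thus common to most probes at the brightest end, and less so below it.

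With each array centred on its median in place of loess, bright probes lay higher: the 2502 probes between the quartiles had a median of 1.06, and the 28 members among them 1.28. That centring shifted the median of all tested probes to 0.43, and that of members to 1.26; 58.0% of all tested probes were then called higher and 0.73% lower, and 53 members higher with 0 lower, also at an unadjusted p under 0.05 in limma. With the log ratio that the scanner software itself wrote, 26.4% of all tested probes were called higher and 21.1% lower, and 18 members were higher and 6 lower, with a median of 0.11. Relative to the median of their own class of brightness (1 of 10), 45 member probes lay above and 13 below after loess. The same split was 45 and 13 after median centring, and 42 and 16 with the software's ratio. On the same side under all 3 were 39 probes above and 10 below. Fitted alone, slide 1 called 13 members higher and 4 lower, and slide 2 called 18 higher and 4 lower. With the slide as a random block the counts were 24 and 4. The fitted correlation within slides was -0.0563, and a value below 0 makes this fit less strict than the main one. Leaving out replicate 2 or replicate 3 left 11 members higher each, and leaving out replicate 1 gave 30. Calls over all tested probes, 8227 in the main fit, also changed. Slide 1 alone gave 4312, slide 2 alone 5101 and the random block 8753. Without replicate 2 there were 2194, without replicate 3 2909 and without replicate 1 9623.

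**Figure D2:**
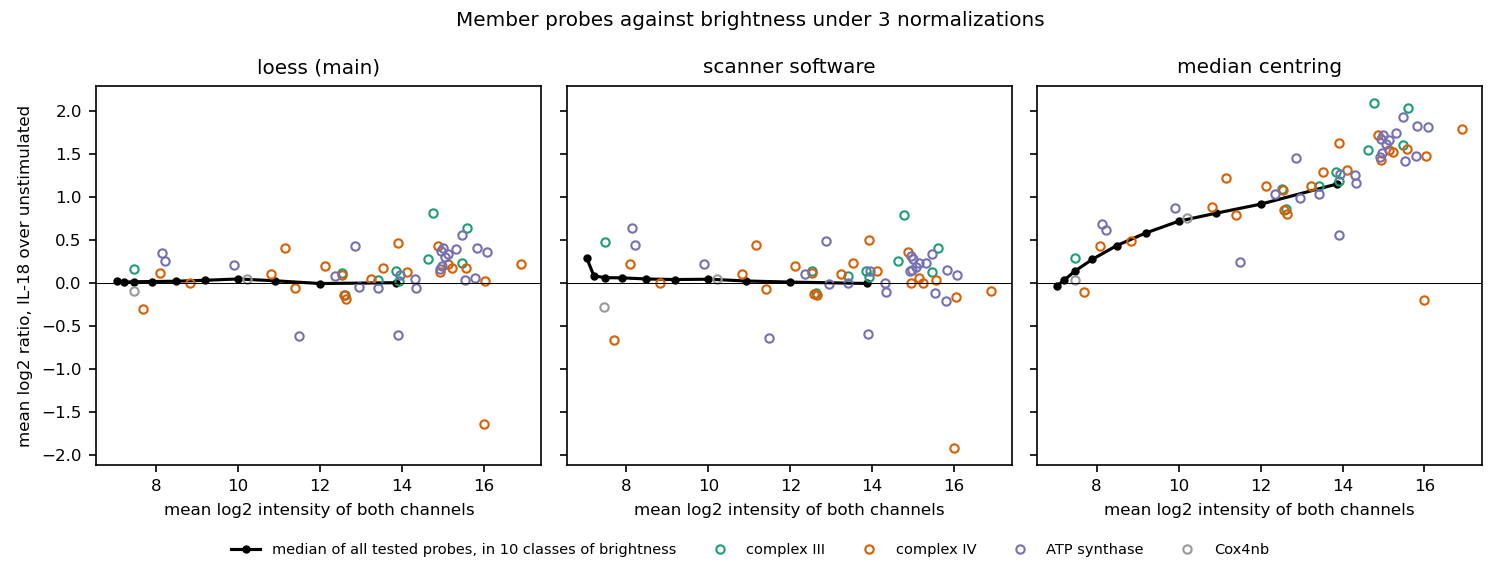
Mean log2 ratio (y axis) against mean log2 intensity of both channels (x axis) for the 58 tested member probes under loess, the scanner software's ratio and median centring; the black line is the median of all tested probes in each of 10 classes of brightness. Most members lie above the line under each normalization (45, 42 and 45 of 58), while the level of the line itself changes. At the bright end of its last class other probes also lie above the line after loess and after median centring.

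Promoter sequences were set beside these values, because several nuclear genes of the respiratory chain are known to be driven by the ETS factor GABP, by NRF1 and by YY1. RefSeq (GRCm38.p6) gave a promoter, from 250 bases before to 50 after the start, for 34 of the 46 genes. Letters searched on both strands were CCGGAAG for the ETS family, GCATGCGC for the core of the NRF1 motif and AAGATGGCG for YY1; none of them is part of another. The 6 promoters shown include those of 4 genes that rose (Uqcrh, Atp5e, Atp5k, Cox6b1), all with the ETS letters. The others are of Atp5b, whose probes went both ways, and Cox10, which fell. Genes that rose with none of the searched letters in their promoters are not shown. Among these are Cox7b (0.46), Atp5g3 (0.40) and Atp5f1 (0.39 with its brightest probe). The 6 promoters shown were chosen after the values were seen. They lie at chr4:116075021-116075320 (minus strand), chr2:174464052-174464351 (minus strand), chr5:108434350-108434649 (minus strand), chr7:30626065-30626364 (minus strand), chr10:128083057-128083356 (plus strand) and chr11:64079423-64079722 (minus strand). Capitals mark the letters found, in either orientation, and the sequences run 5′ to 3′ along the gene.
Uqcrh: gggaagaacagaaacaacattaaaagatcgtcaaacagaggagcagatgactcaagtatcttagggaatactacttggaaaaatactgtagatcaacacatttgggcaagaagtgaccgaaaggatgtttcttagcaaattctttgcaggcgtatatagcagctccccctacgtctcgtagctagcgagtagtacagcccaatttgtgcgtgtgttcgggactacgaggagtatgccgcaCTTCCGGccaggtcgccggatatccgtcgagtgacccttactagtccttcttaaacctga
Atp5e: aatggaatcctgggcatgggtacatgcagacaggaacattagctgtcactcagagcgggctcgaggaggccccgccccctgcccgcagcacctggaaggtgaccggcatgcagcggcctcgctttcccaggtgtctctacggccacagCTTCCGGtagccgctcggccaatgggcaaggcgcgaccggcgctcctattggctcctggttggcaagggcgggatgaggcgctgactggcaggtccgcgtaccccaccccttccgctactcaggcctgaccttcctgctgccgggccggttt
Atp5k: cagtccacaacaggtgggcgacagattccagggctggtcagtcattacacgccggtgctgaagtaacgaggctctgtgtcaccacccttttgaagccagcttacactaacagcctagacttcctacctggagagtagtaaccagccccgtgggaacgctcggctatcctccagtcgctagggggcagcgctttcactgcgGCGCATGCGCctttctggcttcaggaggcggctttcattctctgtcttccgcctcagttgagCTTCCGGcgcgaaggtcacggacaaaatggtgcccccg
Cox6b1: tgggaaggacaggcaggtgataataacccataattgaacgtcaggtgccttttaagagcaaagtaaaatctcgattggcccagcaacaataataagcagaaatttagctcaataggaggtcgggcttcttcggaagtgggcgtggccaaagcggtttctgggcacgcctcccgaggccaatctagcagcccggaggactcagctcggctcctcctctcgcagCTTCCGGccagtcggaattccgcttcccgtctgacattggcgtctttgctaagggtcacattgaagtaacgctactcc
Atp5b: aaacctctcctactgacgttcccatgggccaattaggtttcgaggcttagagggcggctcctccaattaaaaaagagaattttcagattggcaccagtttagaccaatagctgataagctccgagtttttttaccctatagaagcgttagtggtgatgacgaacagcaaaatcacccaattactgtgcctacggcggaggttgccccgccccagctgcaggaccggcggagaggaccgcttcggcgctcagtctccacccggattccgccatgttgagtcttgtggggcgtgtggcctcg
Cox10: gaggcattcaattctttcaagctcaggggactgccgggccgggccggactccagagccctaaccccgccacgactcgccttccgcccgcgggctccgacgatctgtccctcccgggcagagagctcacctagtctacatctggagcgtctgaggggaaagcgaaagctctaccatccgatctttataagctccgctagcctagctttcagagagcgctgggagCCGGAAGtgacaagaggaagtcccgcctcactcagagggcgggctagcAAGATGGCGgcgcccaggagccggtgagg

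In complex III, 4 of the 6 probes for small supernumerary subunits rose (median 0.26), and the 4 probes for core proteins did not pass the threshold (median 0.03). Uqcrh, the hinge protein that sits beside cytochrome c1, had the largest rise of any member. Its probe A_52_P541875 read 0.68, 0.90, 0.87 and 0.81 on replicates 1 to 4, a mean of 0.81 ± 0.10 (SD, n = 4), or 1.76-fold (adjusted p = 0.000665 in limma). A second Uqcrh probe, A_51_P431852, read 0.57, 0.73, 0.72 and 0.53, a mean of 0.64 ± 0.10 (adjusted p = 0.0011). Both probes were above 0 on 4 of 4 arrays, the first was lowest on replicate 1 and the second on replicate 4, and the first exceeded the second on every array. Both also stayed past the threshold with median centring (2.09 and 2.03) and with the software's ratio (0.78 and 0.41).

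Uqcr, the smallest subunit of the complex, rose by 0.28, and 1 probe of Uqcrq, a ubiquinone-binding subunit, rose by 0.24. The second Uqcrq probe read 0.16 and the Uqcrb probe 0.12, neither past the threshold. The called Uqcrq probe read, with the software's ratio, 0.13 and did not pass. Among the core proteins, Uqcrc1 read 0.03 and -0.14 with its 2 probes, Uqcrc2 0.14, and Uqcrfs1, the iron-sulfur protein that moves electrons within the complex, 0.03. The 95% intervals were -0.07 to 0.12 and -0.30 to 0.02 for the Uqcrc1 probes, 0.00 to 0.27 for Uqcrc2 and -0.08 to 0.15 for Uqcrfs1. The interval of Uqcrc2 lies just above 0, and its adjusted p in limma was 0.103. The core probes did not pass with the software's ratio either. The complex III probes that rose were also brighter, with a mean log2 intensity of 14.6 to 15.6, against 12.6 to 13.9 for the core probes. The supernumerary probes that did not pass were at 12.5 (Uqcrb) and 7.5 (Uqcrq). Of probes outside the members, 22.6% rose between 14 and 15 and 46.9% between 15 and 16. The difference between the subgroups, and the part of brightness in it, was not tested.

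In complex IV, 5 of the 11 tested probes for nuclear subunits rose and 6 did not pass (median 0.18). Cox7b, a small transmembrane subunit, read 0.12, 0.53, 0.60 and 0.61 on replicates 1 to 4, a mean of 0.46 ± 0.23 (adjusted p = 0.0108 in limma). Replicate 1 stood well below the other 3, which lay close together. Cox6b1, a subunit on the intermembrane side that joins the monomers of the oxidase, read 0.35, 0.50, 0.42 and 0.35, a mean of 0.40 ± 0.08 or 1.32-fold (adjusted p = 0.00252). All 4 arrays lay in a narrow band for this probe, and it also passed with the software's ratio (0.44) and with median centring (1.22).

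The other 3 rises among subunits came from very bright probes, with a mean log2 intensity of 15.2 to 16.9. Cox6a1 rose by 0.23, Cox4i1, the subunit that binds ATP, by 0.18, and Cox8a by 0.17. With the software's ratio Cox6a1 read -0.09, a change of sign, and Cox4i1 (0.00) and Cox8a (0.04) did not pass. Cox5a, which joins Cox4i1 early in assembly, read 0.03, Cox5b 0.13, Cox6c 0.22 and Cox7c 0.05, and the 2 Cox7a2 probes 0.12 and 0.18. Cox7a2l, which links complexes III and IV, read 0.09.

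Of the 6 isoforms of complex IV subunits that belong to particular tissues, 3 were bright enough to be tested. Cox7a1, the heart and skeletal muscle isoform, rose by 0.19 ± 0.08 (adjusted p = 0.0236 in limma). Cox6b2, the testis isoform, read 0.12 and Cox6a2, the heart and muscle isoform, 0.00, neither past the threshold. Cox4i2, Cox8b and Cox8c, and a second Cox5a probe, were not well above background in enough arrays to be tested. The 2 probes of Cox4nb, whose gene lies beside Cox4i1 and encodes a subunit of an endoplasmic reticulum complex (now Emc8), read 0.05 and -0.09 and did not pass; they are members by name only.

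Among the assembly factors of complex IV, 1 of 7 probes rose, 2 fell and 4 did not pass (median -0.14). Cox10, the enzyme that starts the making of haem A, read -0.07, -0.32, -0.33 and -0.49 on replicates 1 to 4, a mean of -0.30 ± 0.17 (adjusted p = 0.0195 in limma). Replicate 1 was near 0 and the other 3 were lower. This probe is dim, and with median centring it read -0.11 and did not pass; with the software's ratio it read -0.67. Cox15, the next enzyme of haem A synthesis, read 0.11, Cox11, a copper chaperone, -0.06, and the 2 probes of Cox18, which inserts a subunit into the membrane, -0.19 and -0.14, none of them past the threshold.

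Cox17, the chaperone that carries copper toward complex IV, had probes that moved in opposite directions. Probe A_51_P296361, designed on the transcript NM_001017429, read 0.21, 0.47, 0.50 and 0.53 on replicates 1 to 4, a mean of 0.43 ± 0.15 or 1.34-fold (adjusted p = 0.00524 in limma). Probe A_51_P387913, listed by the array's design under the expressed sequence tag BU555670, read -1.89, -1.34, -1.15 and -2.20, a mean of -1.64 ± 0.48, or 3.12-fold lower (adjusted p = 0.00176). The pair therefore lay apart on every array, with no overlap, by a mean of -2.07 ± 0.48 for the tag probe minus the transcript probe. The uncorrected brightness shows what the ratio rests on. For the transcript probe it was 17880, 17440, 14670 and 13630 in Cy3 and 61030, 57350, 53160 and 55910 in Cy5. For the tag probe it was 63380, 65740, 51250 and 93970 in Cy3 and 55880, 67230, 63780 and 67150 in Cy5. The uncorrected ratio of Cy5 over Cy3 was thus 0.882, 1.02, 1.24 and 0.715 for the tag probe, against 3.41, 3.29, 3.62 and 4.10 for the transcript probe. With median centring the tag probe read -0.20 and did not pass, but it lay -1.35 from the median of its class of brightness. The probe sequences were not used here, so what the tag probe measures was not tested.

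In ATP synthase, 13 of 24 probes rose, 2 fell and 9 did not pass (median 0.21). In the F1 part, which makes ATP, the only rise of the central stalk was that of Atp5e, the epsilon subunit. It read 0.36, 0.54, 0.53 and 0.78 on replicates 1 to 4, a mean of 0.55 ± 0.17 or 1.47-fold (adjusted p = 0.0032 in limma). Replicate 4 was highest and replicate 1 lowest, with all 4 above 0. The Atp5e probe had a mean log2 intensity of 15.5, and between 15 and 16, 46.9% of other probes also rose, with a median of 0.17. With the software's ratio it read 0.34 and was still called higher. The other subunits of the central stalk, Atp5c1 (gamma) and Atp5d (delta), read 0.06 and 0.08 and did not pass. Atp5c1 was called lower with the software's ratio, at -0.20. The 2 probes of Atp5a1, the alpha subunit of the catalytic head, read 0.04 and -0.06, neither past the threshold.

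Atp5b, the catalytic beta subunit, gave different answers from its 3 probes, although all are assigned to the transcript NM_016774. The brightest, A_52_P328078, read 0.23, 0.36, 0.35 and 0.48 on replicates 1 to 4, a mean of 0.36 ± 0.10 (adjusted p = 0.00516 in limma). Probe A_51_P207636 read -0.46, -0.39, -0.48 and -1.09, a mean of -0.61 ± 0.33 (adjusted p = 0.0113), and probe A_52_P553841 read -0.36, -0.48, -0.61 and -0.99, a mean of -0.61 ± 0.27 (adjusted p = 0.0069). The latter pair differed little from each other, were lowest on replicate 4, and did not overlap the first on any array. In uncorrected brightness, the ratio of Cy5 over Cy3 was 4.02, 3.35, 3.58 and 4.44 for the brightest probe, 1.89, 1.67, 1.69 and 1.25 for A_51_P207636 and 1.49, 1.33, 1.32 and 1.08 for A_52_P553841. With median centring the 2 lower probes turned to 0.56 and 0.24, not past the threshold, while staying -0.59 and -0.67 from the medians of their classes of brightness. With the software's ratio they stayed lower (-0.59 and -0.64), and the brightest read 0.10 and did not pass. The brightest had a mean log2 intensity of 16.1. Between 16 and 18, 78.4% of probes outside the members rose after loess, with a median of 0.52. A direction for Atp5b as a gene cannot be given from these probes.

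**Figure D3:**
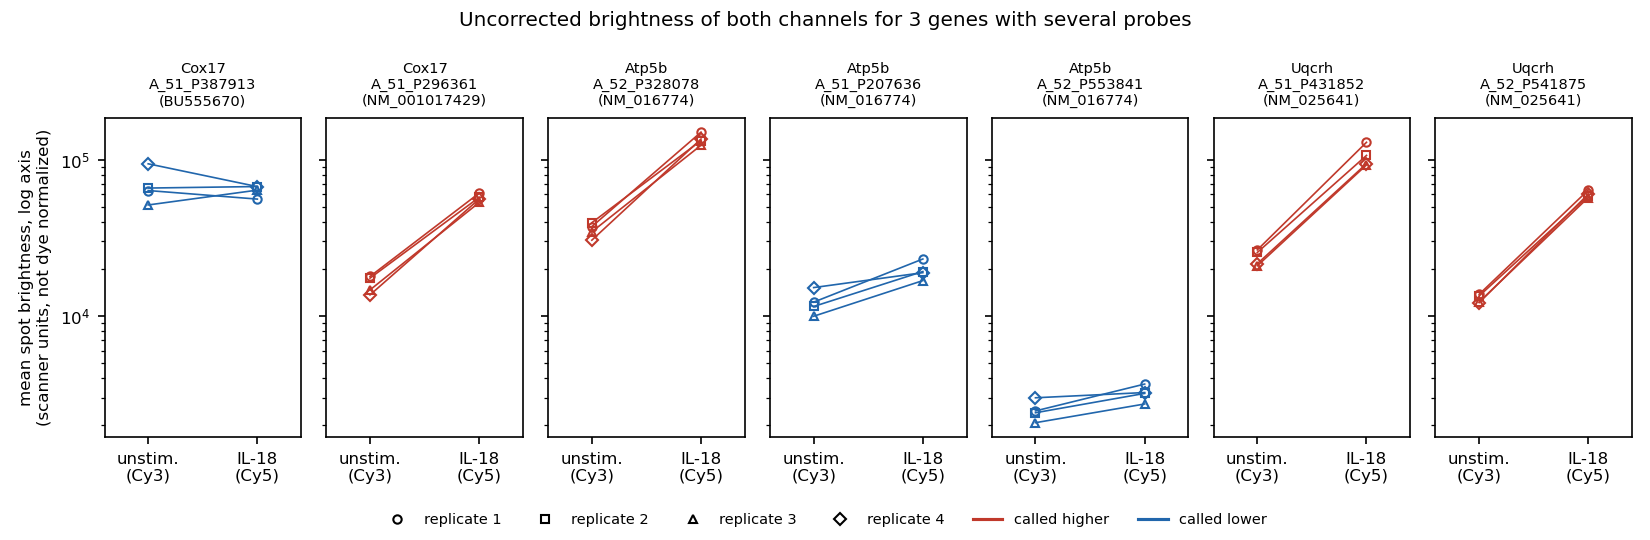
Uncorrected mean spot brightness (y axis, log scale, scanner units) of the unstimulated (Cy3) and stimulated (Cy5) channel for the probes of Cox17, Atp5b and Uqcrh, with 1 line for each replicate and colours for the calls after loess. The Cox17 tag probe is about as bright in both channels, while the other Cox17 probe and both Uqcrh probes are brighter in Cy5 on all 4 arrays; the 2 Atp5b probes called lower after loess are brighter in Cy5 without it, and median centring places them above 0.

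In the peripheral stalk, which holds the catalytic head still while the rotor turns, 6 of 7 probes rose and 1 did not pass (median 0.33). Of the 6, 3 had a brightness between 15 and 16, where 46.9% of other probes also rose. Atp5j read 0.20, 0.43, 0.50 and 0.50 on replicates 1 to 4, a mean of 0.41 ± 0.14 (adjusted p = 0.00578 in limma). Replicate 1 was lowest, and all 4 arrays were above 0. The 2 probes of Atp5h, subunit d, rose by 0.33 and 0.30, and Atp5o, the subunit that confers sensitivity to oligomycin, by 0.17. Of the 3 probes of Atp5f1, subunit b, the brightest rose by 0.39, a dim one listed under AK081249 rose by 0.34, and one listed under BC049640 read -0.04 and did not pass. With the software's ratio 4 of the 7 probes were higher: that of Atp5j, 2 of the 3 of Atp5f1 and 1 of the 2 of Atp5h. The Atp5f1 probe listed under BC049640 read -0.01 there. With median centring all 7 were higher.

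In the membrane part, Atp5k (subunit e) and Atp5l (subunit g), which join ATP synthase into dimers, both rose. Atp5k read 0.33, 0.45, 0.44 and 0.50 on replicates 1 to 4, a mean of 0.43 ± 0.07 or 1.35-fold (adjusted p = 0.00206 in limma). Its replicates spread little, and its mean log2 intensity of 12.9 lay where the loess median of other probes was -0.03. Atp5l rose by 0.38 ± 0.12, and Atp5j2 (subunit f) read 0.20 and did not pass. The genes Atp5g1, Atp5g2 and Atp5g3 encode the same mature subunit of the rotor ring. Of them, Atp5g3 rose by 0.40, Atp5g1 read 0.10 and the 2 Atp5g2 probes 0.04 and -0.06. Atp5g3 read 0.15 with the software's ratio and did not pass. The difference among the 3 genes was not tested. Atp5s, a coupling factor that is not a fixed subunit (now Dmac2l), rose with both probes, by 0.21 and 0.25.

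Of the 28 called member probes, 0 kept their direction and call under every alternative. Under every alternative except the 2 scale normalizations between arrays, 9 kept them. These were both Uqcrh probes, Atp5e, Atp5j, Atp5k, Atp5l, the brightest Atp5f1 probe, Cox6b1 and the transcript probe of Cox17. All 9 were rises, but median centring called 0 members lower, so no fall could be kept. With median centring also left out, 12 kept them: the same 9 rises, both lower Atp5b probes and the Cox17 tag probe. Among the 13 genes with more than 1 tested probe, every probe rose for Atp5h, Atp5s and Uqcrh.

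The ETS letters stood in the promoters of 12 of the 34 member genes (35.3%), against 9.93% of 27025 genes with a promoter in the same table. All 12 had a tested probe, and the brightest probe rose for 10 of them: Uqcrh, Uqcr, Atp5e, Atp5h, Atp5j, Atp5k, Atp5l, Cox6a1, Cox6b1 and Cox8a. Of the rest, Cox10 fell and Cox15 did not pass. The median log2 ratio of the 12 was 0.35. Among the 21 tested genes without the letters, the brightest probe rose for 7, and the median of the 21 was 0.12. The 7 include Atp5b, whose other probes fell. Over all tested probes 18.1% rose, and between a mean log2 intensity of 15 and 16, 46.9% of other probes rose. The shares given for all genes took in every gene with a promoter, tested or not and of any brightness. Genes outside the members were not split by the letters. The genes with the letters were also brighter, with a median log2 intensity of 15.0 against 13.9, and the part of brightness in this contrast was not tested. The NRF1 letters were found in 6 of the 34 genes (17.6%), against 3.05% of all genes, and the YY1 letters in 3 (8.82%), against 1.64%. The members' ratios were split by the ETS letters only, and the motifs overlap. Of the NRF1 genes, Atp5k, Atp5l, Cox6a1 and Uqcr also had the ETS letters and rose. Atp5g2 and Uqcrc1 had no ETS letters and did not pass. Of the YY1 genes, Atp5j rose and Cox10 fell, both with the ETS letters, and Atp5j2, without them, did not pass. A match is a description of the letters in this window, and the contrast of the groups has no test.

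**Figure D4:**
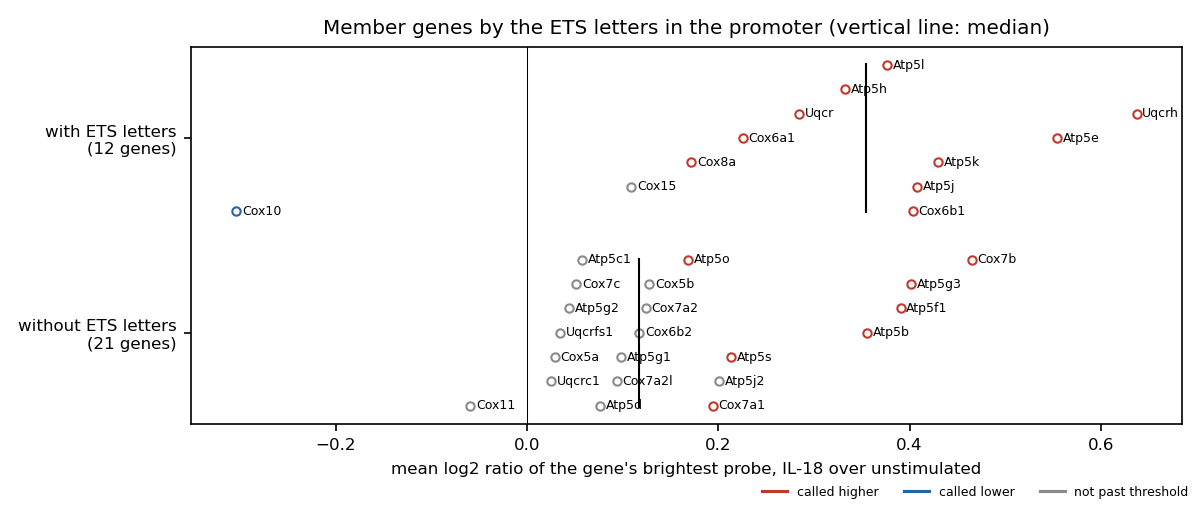
Mean log2 ratio of the brightest tested probe (x axis) for the tested member genes with a RefSeq promoter, split by whether the ETS letters are in it; colours give the call in limma and the vertical lines the medians, 0.35 with the letters (12 genes) and 0.12 without (21 genes). Cox6a1, in the group with the letters, turns to below 0 with the software's ratio, and the groups also differ in brightness. Atp5b, in the group without them, is placed by a probe that rose, while its other probes fell.

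Partners of the complexes, taken from a list of 46 genes for cytochrome c, complex II, assembly, carriers and regulators, had 78 tested probes. Of these, 17 rose (21.8%), 10 fell (12.8%) and 51 did not pass, with a median of 0.04. Those shares were near the 18.1% and 16.1% over all tested probes, so the counts are no result about the partners. The largest rises were in ATP synthase partners and a carrier: Usmg5, a small protein bound to ATP synthase, by 0.53 ± 0.23, the adenine nucleotide carrier Slc25a5 by 0.39 ± 0.09, and 1 of 2 probes of the ATP synthase inhibitor Atpif1 by 0.38 ± 0.17. The other Atpif1 probe, a dimmer one, read 0.02 and did not pass. With the software's ratio, Slc25a5 (0.15) and the Atpif1 probe that rose (0.16) did not pass. The Slc25a5 probe had a mean log2 intensity of 16.3. Between 16 and 18, 78.4% of probes outside the members rose, with a median of 0.52. That Atpif1 probe was at 15.97, and between 15 and 16 the share was 46.9% and the median 0.17. Usmg5 was dimmer, at 14.4. Tfb2m, a mitochondrial transcription factor, rose by 0.34 ± 0.11 with 1 probe and by 0.25 with the other. The largest fall was in 1 of 3 probes of Tfam, the packaging and transcription factor of mitochondrial DNA, at -0.79 ± 0.37, while the other Tfam probes read -0.05 and 0.07. A Sdha probe, for the flavoprotein of complex II, fell, at -0.56 ± 0.26, an Nrf1 probe, at -0.44 ± 0.27, and a probe of the carrier Slc25a4, at -0.30 ± 0.15. These genes' other probes read -0.12, -0.20 and -0.04 and did not pass. With median centring Slc25a4 was called higher at 0.73, Tfam read 0.26 and Sdha 0.29, both above 0 and not past the threshold, and Nrf1 read -0.11.

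The regulators on that list had 25 tested probes, of which 5 rose and 5 fell (20% each), again near the shares over all tested probes. All 3 probes of Gabpa, the DNA-binding subunit of GABP, read 0.10, 0.13 and 0.20 and did not pass, while 2 of 3 tested probes of its partner Gabpb1 rose, by 0.14 and 0.20, and the third read 0.08. The Gabpb1 probe at 0.20 is near background, with a mean log2 intensity of 7.04; median centring gave 0.14, short of the threshold, and the software's ratio 1.55. The tested Tfb1m probe rose by 0.25, and the Yy1 probes read 0.03, -0.01 and 0.07 and did not pass. A probe of Esrra, a nuclear receptor for mitochondrial genes, fell, at -0.30 ± 0.06, and the other read -0.15. The coactivators Pprc1 and Ppargc1b each had a probe that fell, at -0.20 and -0.27. The other tested Ppargc1b probes read 0.05 and -0.18 and did not pass, and the tested Ppargc1a probe read 0.05. With median centring those probes of Esrra (0.68) and Pprc1 (0.69) were called higher, and that of Ppargc1b read 0.23 and did not pass. Cytochrome c itself was close to 0, with Cycs at 0.05, 0.03 and 0.07.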

How the data were processed

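Stimulated (Cy5) and unstimulated (Cy3) RNA of 4 biological replicates was measured on 4 Agilent arrays, each with both colours. The deposited scanner files hold the intensity of each spot (mean signal and median local background) from Agilent Feature Extraction 9.1, per the file headers. They also hold the software's log10 ratio after its own background and dye correction, used as an alternative together with the authors' deposited series table, whose log10 ratios differ from it by at most 0.00496. The well-above-background, saturation and outlier flags are the authors' software's own.

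Background was corrected with normexp (offset 50), and log2 ratios were normalized by loess within arrays, with control and outlier spots at weight 0. Spots of a probe were averaged. Probes clearly over background on at least 3 of 4 arrays, in 1 channel throughout, were tested with limma 3.58.1 in R 4.3.3 (lmFit with an intercept, eBayes, two-sided, Benjamini-Hochberg over 24104 probes). Both samples of a pair share an array, which makes this the paired test; with 4 arrays the smallest p of an exact sign-flip test is 0.125. The fit was also run on simulated data, with independent noise for each spot and effects added to some probes. Those data held no dye effect specific to a probe, so they do not bear on that limit.

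Named in full were the 8 largest rises and falls past the threshold with 1 sign on 4 of 4 arrays (only 4 falls passed), all probes of genes called both ways, and Cox17; partners were named by their 4 largest rises and falls, with their genes' other probes and the regulators added after the values were seen. Members and lists were chosen with earlier results of these data known. Alternatives were the background correction, the offset, the normalization, the filter on dim probes, the eBayes settings, the slide as a block or alone, and leaving out each replicate. Gene symbols were matched to RefSeq (GRCm38.p6) for 46 of 46 genes. Probe sequences were not used here. The number of arrays limits the precision.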

Additional observations from a re-analysis of the deposited data

Results flagged for a closer look

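Each of the 58 tested member probes was checked for 1 array standing apart from the other 3 by Dixon's criterion, and 5 probes had one. Chance gives about 1 in 20. Replicate 4 stood apart for 3 of them. Atp5a1 probe A_51_P402496 read -0.27 there against 0.00 to 0.01 on the other arrays. Atp5b probe A_51_P207636 read -1.09 against -0.48 to -0.39. Cox18 probe A_52_P665768 read 0.070 against -0.31 to -0.25, above 0 where the other arrays were below. Replicate 1 stood apart for the remaining pair: Cox5b read -0.037 against 0.18 to 0.20, and Cox7b read 0.12 against 0.53 to 0.61.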

How the results depend on the processing

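The slide as a random block, the filters on dim probes, the eBayes settings, the offset, the series table and leaving out background correction left the members' counts (24 higher, 4 lower) within 1.5 times. Median centring gave 14146 calls over all tested probes in place of 8227, 53 members higher and 0 lower, 60 partners higher and 0 lower (in limma 0 also at an unadjusted p under 0.05, for both), and a members' median of 1.26 in place of 0.13. It turned 2 Atp5b probes to 0.56 and 0.24. The software's ratio and the series table turned Cox6a1 to -0.092. Scale normalization over all spots left 0 calls in limma, 0 among members and 0 among partners, against 5873 tested probes, 17 members higher and 2 lower, and 5 partners higher and 8 lower at an unadjusted p under 0.05. Replicate 1 had a median absolute log2 ratio over all spots of 0.0159, against 0.0944 to 0.117 on the others. The same step over tested probes only, chosen after seeing the data, gave 7317 calls, 23 members higher and 4 lower. Without background correction 17 partners were lower in place of 10. Slide 1 alone gave 4312 calls, 13 members higher, 9 partners higher and 3 lower, and slide 2 alone gave 5101 calls and 6 partners higher. Leaving out each replicate gave 2194 (without replicate 2) to 9623 calls, 11 (without replicate 2 or 3) to 30 members higher, 3 to 6 lower, 4 to 17 partners higher and 2 to 15 lower. Each ratio is already the difference within a pair, so no replicate block was added. Precision is limited by 4 arrays and by signal over background, which left 4 dim member probes untested.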
